A study of Mus musculus with 12 samples.

Results

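BMAL1 binding was examined at 10 genes that make or use nicotinamide adenine dinucleotide (NAD): the salvage enzymes Nampt, Nmnat1, Nmnat2 and Nmnat3, the sirtuins Sirt1, Sirt2, Sirt3, Sirt6 and Sirt7, and Parp1. A BMAL1-ChIP-seq peak was given to the gene whose protein-coding start site lay nearest to its centre, over 21840 annotated genes. In the 6 peak lists 35 of 35822 peaks belonged to the 10 genes. Overlapping peaks (1 bp or more) were joined across libraries, which gave 9 regions for these genes and 16818 in all.

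NAD carries electrons in metabolism and is consumed as a substrate by sirtuins and poly(ADP-ribose) polymerases, which release nicotinamide. Nicotinamide phosphoribosyltransferase (Nampt) and the nicotinamide mononucleotide adenylyltransferase enzymes (Nmnat) turn nicotinamide back into NAD. The clock and this pathway are known to be linked, because BMAL1 and its partner CLOCK bind E-boxes, the sequence CACGTG, at target genes that include Nampt, and the sirtuin SIRT1 acts on clock proteins in an NAD-dependent way.

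The cells were primary mouse adult fibroblasts (MAFs) from the ears of adult female C57BL/6 mice, grown at low oxygen. Control MAFs were sham irradiated. Senescent MAFs received 20 Gy of X-rays and were then kept in culture for weeks before synchronization. How long control MAFs were kept after sham irradiation is not given, so time in culture may differ between the groups. All MAFs were synchronized with 100 nM dexamethasone, a glucocorticoid that sets cultured cells to a common clock phase. They were collected 12 hours after synchronization, with 3 libraries per group. The labels do not say whether replicates came from separate animals or cultures, so the spread between them may be technical. As a check of the assay, all 12 clock genes examined had a peak in all 6 libraries, each at rank 55 or better, where 1 is the best score of a list. The lists held 2794 to 10601 peaks in control libraries and 4220 to 9805 in senescent libraries. They give no reads, so the depth is unknown, and a peak missing from a list shows only that none was called. Peak positions cannot check fibroblast or senescence markers.

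Of the 10 genes, 6 had at least 1 peak and 4 had a peak in all 6 libraries. Over all genes, 36.4% had a peak in at least 1 library and 5.14% in all 6. Nampt, Nmnat2, Nmnat3 and Parp1 were called in 3 of 3 control and 3 of 3 senescent libraries. Sirt1 was called in 1 control and 3 senescent libraries, and Sirt6 in 0 control and 1 senescent library. No peak was nearest to Nmnat1, Sirt2, Sirt3 or Sirt7. Among the 3 control libraries 4, 4 and 5 member genes had a peak, and among the senescent libraries 5, 6 and 5. The means were 4.33 ± 0.577 genes in control and 5.33 ± 0.577 genes in senescent libraries (SD, n = 3), and the groups met at 5. Of all 21840 genes, 9.33%, 10.8% and 25.4% had a peak in control replicates 1, 2 and 3. The shares were 14.4%, 26.5% and 16.6% in senescent replicates 1, 2 and 3, and were highest in the longest list of each group.

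**Figure D1:**
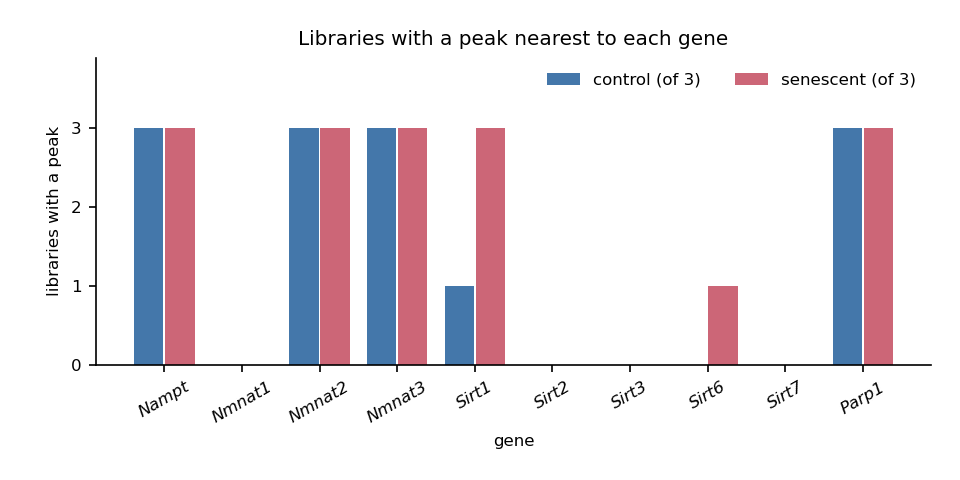
Number of libraries, of 3 in each group, in which a peak was nearest to each of the 10 genes (bars start at 0). Nampt, Nmnat2, Nmnat3 and Parp1 reach 3 in both groups, whereas Sirt1 has 1 control and 3 senescent libraries and Sirt6 has 0 and 1.

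By region, 4 of the 9 were called in all 6 libraries, against 6.58% of all regions. None of the 9 belonged to a single group, meaning 2 or 3 of its libraries and 0 of the other's. Over all regions, 9.44% were called in at least 2 senescent and 0 control libraries, and 5.86% in at least 2 control and 0 senescent libraries. Another 4 member regions were called in a single library, as were 55.7% of all regions. Of these, 3 came from control replicate 3 and 1 from senescent replicate 2, which had the longest list of their groups. The last region, at the Sirt1 start site, was called in 3 senescent libraries and 1 control library, a pattern of 3.35% of all regions. Member regions lay within 1000 bp of the start site in 6 of 9 cases (66.7%), compared with 33.9% of all regions.

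The E-boxes under these peaks are shown because they separate the members into genes with and without a canonical site under a peak. All are written 5′ to 3′ on the forward strand of GRCm38 (mm10), with the motif in capitals. At Parp1 the E-box lay 85 bp upstream of the start site (chr1:180568830-180568859). At Sirt1 a pair of E-boxes lay 40 and 112 bp upstream of the nearest start site, with 72 bp between their first bases (chr10:63339067-63339156). Sirt1 is on the reverse strand, and a longer transcript that starts farther upstream places both in an intron. At Nmnat3 an E-box lay in an untranslated part of an exon, 157 bp downstream of the nearest start site (chr9:98296805-98296834), and another in an intron at 395 bp (chr9:98297043-98297072).
Parp1: acctcccaaggaCACGTGctgaagccccgc
Sirt1: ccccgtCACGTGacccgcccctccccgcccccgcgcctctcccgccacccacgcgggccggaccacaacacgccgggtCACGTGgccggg
Nmnat3, exon: acctaccaggccCACGTGactctcgggggc
Nmnat3, intron: tccagcgattgtCACGTGtagcgtgctgcc

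Every one of the 6 Parp1 peaks held its E-box, as did 6 of the 8 Nmnat3 peaks and 4 of the 5 Sirt1 peaks. None of the 8 Nampt, 7 Nmnat2 or 1 Sirt6 peaks held a CACGTG. In all, 16 of the 35 member peaks (45.7%) held an E-box, compared with 27.7% of all peaks. Peaks at 1 site in several libraries share that site, so these 16 peaks stand for 3 regions. The best peak of a region was taken as the one with the lowest rank as a percentage of its own list. Within 100 bp of its centre, 2 of 9 member regions (22.2%) had an E-box, with 16.7% of all regions and 2.68% of windows of the same length 2000 bp to each side. At Nmnat3 that peak came from senescent replicate 2, with its centre 236.5 bp from the nearest E-box. The Nmnat3 peak of lowest rank, in control replicate 1 (1067.5), was centred 44.5 bp from one. With lists cut to equal length the members' share was 50%. The shares over all regions and over the windows were not computed for the cut lists.

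E-boxes at the start sites were not always under a peak. CACGTG occurred within 1000 bp of an annotated start site of 6 of the 10 genes, as it did for 32.2% of all genes. Of the 11 E-boxes found there, 5 were under a peak of at least 1 library. The share of such E-boxes under a peak was not computed over all genes. Sirt6 had 3 and Sirt2 had 2 E-boxes under no peak. The only one at Nampt was intronic, 742 bp past the start, and was under no peak either. In the RefSeq promoter table (GRCm38.p6, 300 bases around each start), which held all 10 genes, CACGTG was present for Sirt1 and Parp1 only, and in 7.15% of all promoters.

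**Figure D2:**
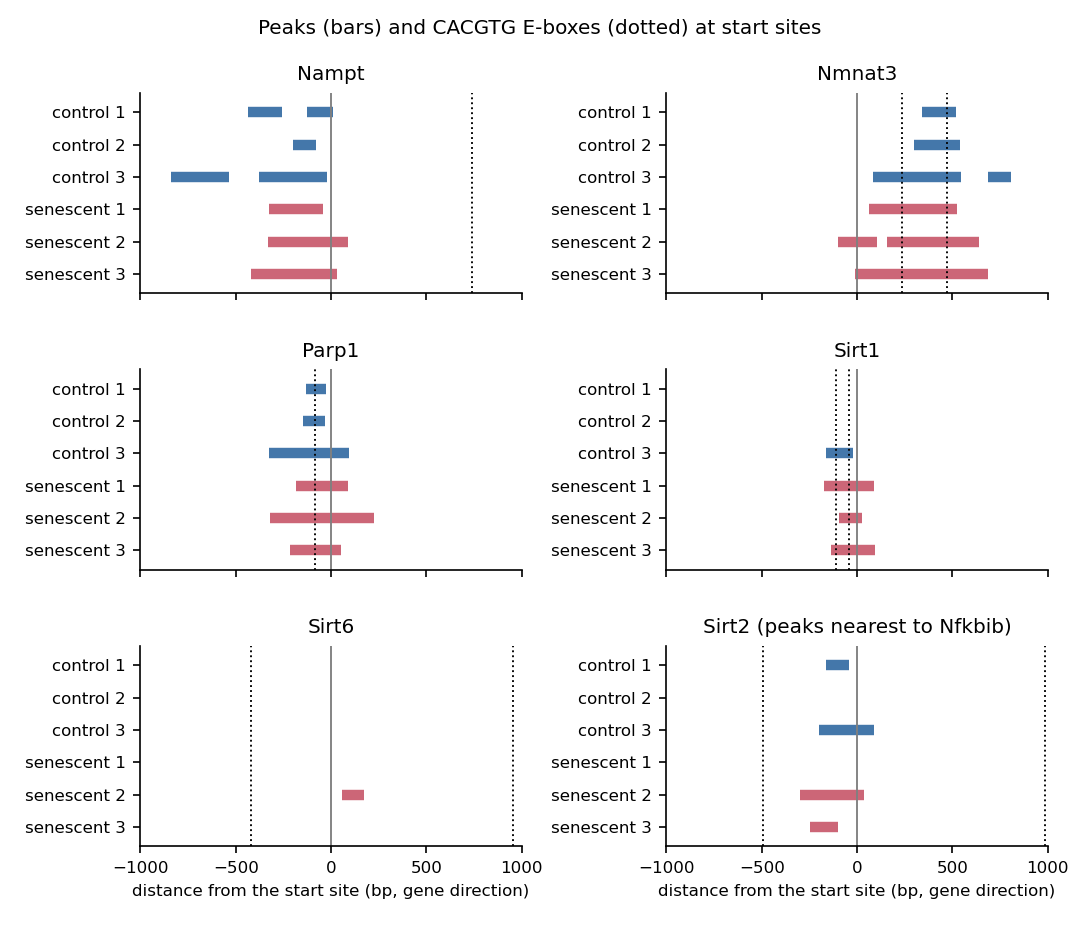
Peaks of each library (bars, blue for control and red for senescent) within 1000 bp of the start site (grey line at 0) of 6 genes, with CACGTG E-boxes as dotted lines. The horizontal axis gives the distance in bp along the direction of the gene. Bars cross the E-boxes of Parp1, Sirt1 and Nmnat3, whereas those of Nampt, Sirt6 and Sirt2 do not.

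Nampt, the rate-limiting enzyme of NAD salvage, had a region over its start site at chr12:32819898-32820423. Its best peak was centred 120 bp upstream of the start. The best peak of each library ranked 975.5, 2096 and 1634 in control replicates 1, 2 and 3 (1 is best, ties averaged), and 2663.5, 911.5 and 1546.5 in senescent replicates 1, 2 and 3. The groups overlapped throughout, with the best and the worst rank both in senescent libraries. The mean rank of 1568.5 ± 563 in control differed from the 1707 ± 887 of senescent libraries (SD, n = 3) by less than the spread (two-sided exact permutation p = 1). The peaks were 121 to 360 bp wide in control libraries and 286 to 456 bp in senescent libraries. In control replicate 1 the region was split into 2 peaks, of which the better lay 347 bp and the other 59 bp upstream of the start. A further peak, 688 bp upstream at chr12:32819494-32819801, was called in control replicate 3 alone, at rank 8046.5 of 10601.

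The 200 bases before the Nampt start site (chr12:32820135-32820334, forward strand) are printed because no Nampt peak held an E-box. The better peak of control replicate 1 and the peak 688 bp upstream lay outside this stretch, and other peaks reached beyond it. Capitals mark CACGCG, read on either strand, a variant of the motif that was added to the search once the Nampt peaks had turned out to hold no CACGTG.
Nampt: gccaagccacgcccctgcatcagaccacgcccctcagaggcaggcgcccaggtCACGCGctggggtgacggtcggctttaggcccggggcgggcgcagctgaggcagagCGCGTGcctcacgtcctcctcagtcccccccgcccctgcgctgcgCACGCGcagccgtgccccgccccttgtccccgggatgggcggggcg

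Within 100 bp of the best peak centre, CACGCG was found in 3 of 9 member regions, those of Nampt, Nmnat2 and the Sirt1 start site. It was present in 15.2% of all regions within 1000 bp of a start site and in 7.09% of all regions. The GC box GGGCGG was found in the regions of Nampt, Nmnat3, Sirt1 and Parp1 within the same window, and in 52.5% of all regions near a start site. The Nampt region had a GC content of 70.2% and that at the Sirt1 start site 77.2%, above the median of 60.6% for regions near a start site, as was that of Parp1 at 62.4%. The member regions near a start site at Nmnat3 (57.6%), Sirt6 (55.6%) and farther upstream of Nampt (40.3%) lay below it. The AP-1 motif TGACTCA, searched on both strands, was found in 0 of 9 member windows (the 1 match in any member region, at Nmnat3, lay outside its window), and in 4.82% of all regions within 1000 bp of a start site and 22.5% of the others.

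The best-ranked member region was not at a start site. It was intronic to Nmnat2, a cytosolic adenylyltransferase known for its role in axons (chr1:153065598-153066268). Its best peak by percentile, in control replicate 3, was centred 110935 bp past the start site. The region ranked 160, 219 and 193 in control replicates 1, 2 and 3, and 295, 530.5 and 401 in senescent replicates 1, 2 and 3. Every control library ranked it higher than every senescent library. The mean rank was 191 ± 29.6 among control and 409 ± 118 among senescent libraries (SD, n = 3), and the two-sided exact permutation p of 0.1 was the lowest that 3 against 3 libraries can give. The adjusted p was 0.278 over the 1106 regions called in all 6 libraries (exact permutation test, Benjamini-Hochberg), the lowest value any of them had, so none of the 1106 passed a correction for multiple tests. Ranks did not overlap, in favour of control, at 18.4% of these regions. As a percentile of its list the region stood at 5.73%, 6.54% and 1.82% in control and 6.99%, 5.41% and 7.94% in senescent libraries, and the groups then overlapped (p = 0.3, exact permutation test).

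The Nmnat2 region held no CACGTG and no AP-1 motif. The 201 bases around its best peak centre (chr1:153065833-153066033, forward strand) are printed because the best-ranked member region had no canonical site. Capitals mark CATGTG and CACGCG on either strand, and the overlapping CATGTG matches form 1 block.
Nmnat2: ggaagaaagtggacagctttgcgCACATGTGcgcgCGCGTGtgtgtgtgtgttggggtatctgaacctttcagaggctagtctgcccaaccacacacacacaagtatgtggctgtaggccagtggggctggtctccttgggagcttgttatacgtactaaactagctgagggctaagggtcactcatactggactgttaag

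CATGTG was found in 17.8% of all regions and in 15.9% of the windows 2000 bp to each side. The repeat-masked share of the Nmnat2 region was 26.5%, above the upper quartile of 13.9% over all regions, and its GC content was 43.8%. The bearing of the repeat on the calls was not tested. The 5 regions whose ranks over the 6 libraries were most like it, by Euclidean distance of log2 rank (0.802 to 1.03), were nearest to Itpkb, Taf12, Nfe2l3, Mreg and Sertad1. The Itpkb region, the closest, ranked 186.5, 226 and 175 in control and 409, 381.5 and 314 in senescent libraries. Another intronic Nmnat2 region, 59698 bp past the start (chr1:153014498-153014894), was called in control replicate 3 alone, at rank 1599.

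Parp1, the polymerase that builds poly(ADP-ribose) at DNA breaks and draws on NAD to do so, had the opposite order. Its region lay over the start site at chr1:180568604-180569154, with its best peak by percentile, in senescent replicate 2, centred 47 bp upstream. It ranked 2199, 2688.5 and 1310 in control replicates 1, 2 and 3, and 772.5, 899.5 and 1166.5 in senescent replicates 1, 2 and 3. Every senescent library ranked it higher than every control library. The mean rank was 2066 ± 699 among control and 946 ± 201 among senescent libraries (SD, n = 3), with a two-sided exact permutation p of 0.1 and an adjusted p of 0.278 over 1106 regions. Ranks did not overlap, in favour of senescent libraries, at 17.6% of the 1106 regions. Control replicate 3 narrowed the gap and was the only control library in which the peak was wide, at 423 bp against 109 and 121 bp in the other control libraries. Senescent peaks were 266 to 545 bp wide. As a percentile of its list the region stood at 78.7%, 80.3% and 12.4% in control and 18.3%, 9.17% and 23.1% in senescent libraries, and the groups overlapped through control replicate 3 (p = 0.3, exact permutation test).

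Nmnat3, the mitochondrial adenylyltransferase, had the widest member region, 909 bp from before the start site into the intron (chr9:98296481-98297389). It ranked 1067.5, 3261 and 6601 in control and 1442.5, 2581.5 and 1546.5 in senescent replicates 1, 2 and 3. The senescent ranks all lay within the control range. The mean rank was 3643 ± 2786 among control and 1857 ± 630 among senescent libraries (SD, n = 3), and the two-sided exact permutation p was 0.4. The call in control replicate 2 was close to the end of its list, at rank 3261 of 3349 with a score of 2.65. Every list began just above a score of 2. By percentile the order was clear of overlap, at 38.2%, 97.4% and 62.3% in control and 34.2%, 26.3% and 30.6% in senescent libraries (p = 0.1, exact permutation test; adjusted p = 0.567 over 1106 regions). Percentiles did not overlap, in favour of senescent libraries, at 12.9% of the 1106 regions and, in favour of control, at 4.70%. The peaks were centred 237 to 667 bp downstream of the nearest start site in control and 0 to 320 bp in senescent libraries, and these ranges overlapped. In senescent replicate 2 a peak lay over the start site itself and a further one over both E-boxes. The former gave the rank of 2581.5, and the latter ranked 2742.5. In control replicate 3 the rank of 6601 came from the peak centred 667 bp downstream, which held no E-box. Its peak over the E-boxes ranked 7631. The ranks of this region therefore do not all refer to peaks at the same position.

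**Figure D3:**
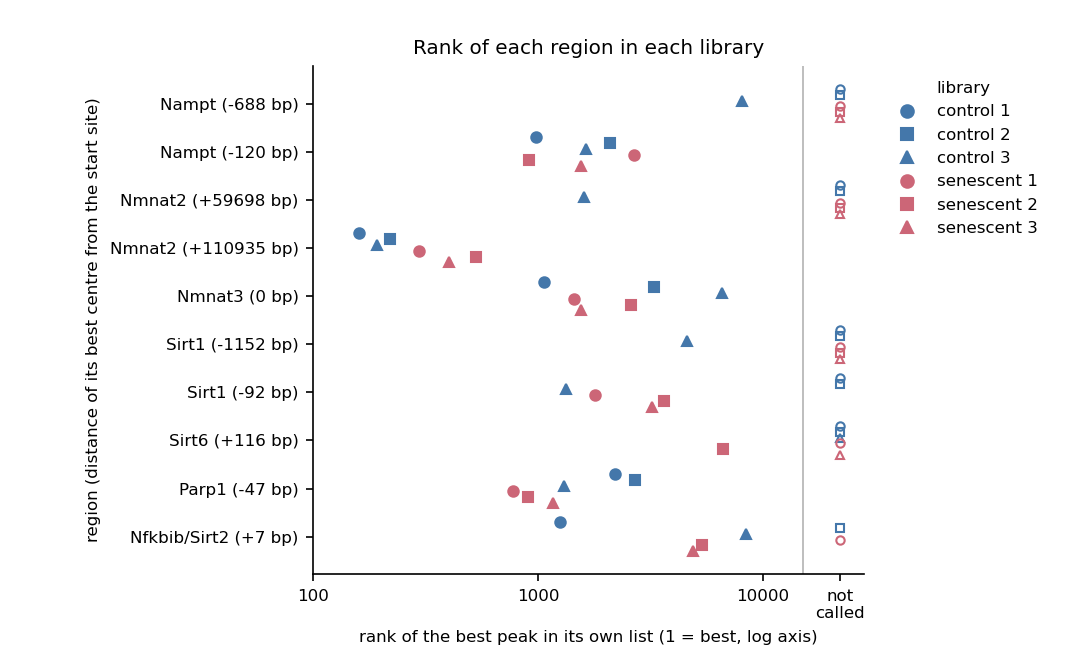
Rank of the best peak of each member region, and of the region between Sirt2 and Nfkbib, in each library (log axis, 1 is best; blue for control, red for senescent, shape for the replicate number, open symbols for not called). The distal Nmnat2 region sits between ranks 160 and 530.5 with control to the left, and Parp1 has senescent to the left, from 772.5 to 1166.5.

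Of the 5 sirtuins, Sirt1 and Sirt6 had a peak. Sirt1, a nuclear deacetylase, had a region next to its start site at chr10:63338940-63339206, across the pair of E-boxes. It ranked 1337 in control replicate 3 and 1789.5, 3622 and 3208 in senescent replicates 1, 2 and 3, and was not called in control replicates 1 and 2. The single control call had the best rank of the 4. The lists of control replicates 1 and 2 ended at ranks 2794 and 3349. The E-box nearer to the start site was under the peaks of all 4 libraries, and the one farther away was under those of control replicate 3 and senescent replicates 1 and 3. A single peak 1152 bp upstream of the distal start site of Sirt1 (chr10:63382771-63382942) came from control replicate 3, at rank 4608.5.

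Sirt6, a chromatin-bound deacylase, had 1 peak, in senescent replicate 2 at rank 6610 of 9805 (chr10:81627623-81627739). It was centred in the untranslated part of an exon 116 bp downstream of the start site.

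Sirt2, a mainly cytoplasmic deacetylase, shows what the nearest-start rule leaves out. It shares a divergent promoter with Nfkbib, an inhibitor of NF-kappa-B, and a region there was called in 2 control and 2 senescent libraries (chr7:28766434-28766823). Its 4 peaks were centred 55 to 175 bp from the nearest Sirt2 start site and 7 to 46 bp from that of Nfkbib, so all counted for Nfkbib. The closest decision was in control replicate 3, at 55 bp from Sirt2 and 40 bp from Nfkbib. The region ranked 1254.5 in control replicate 1, 8375.5 in control replicate 3, 5365.5 in senescent replicate 2 and 4870 in senescent replicate 3. The groups overlapped, and the region held no E-box.

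For the other 3 genes the nearest peak was farther away. It lay 6986 bp from the start site of Sirt7, a nucleolar deacylase, and 25229 bp from that of Sirt3, the mitochondrial deacetylase. Each was called in 1 senescent library and was nearest to another gene, Pcyt2 and Gm45785. For Nmnat1, the nuclear adenylyltransferase, it lay 11626 bp away, nearest to Lzic, in a region called in 2 control and 0 senescent libraries.

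The 4 member regions called in all 6 libraries can be placed among all 1106 such regions. By mean rank over the 6 libraries Nmnat2 was in place 200, Parp1 in place 786, Nampt in place 824 and Nmnat3 in place 1049, where the median region had a mean rank of 941. Ranks of the groups did not overlap at 2 of the 4, 1 in each direction, and at 36.0% of the 1106.

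**Figure D4:**
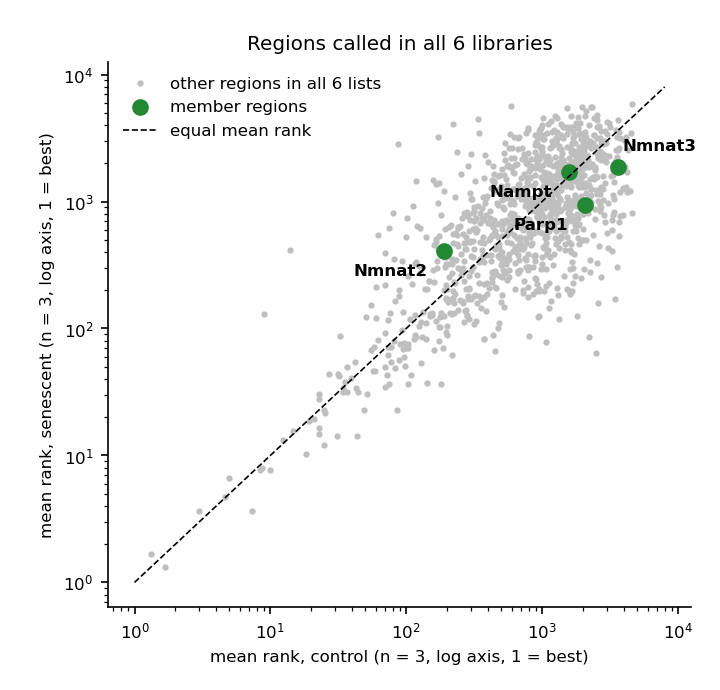
Mean rank in control (horizontal) against senescent libraries (vertical), both on log axes with 1 as the best rank, for the 1106 regions called in all 6 libraries (n = 3 per group). The members are green, with Nmnat2 above the dashed line of equal rank at 191 and 409, Parp1 below it at 2066 and 946, and Nampt close to it.

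Among 38 other genes of NAD synthesis, transport and use, 17 (44.7%) had at least 1 peak, compared with 36.4% of all genes. A peak in all 6 libraries was found for 4 of the 38, and for 5.14% of all genes. A total of 37 regions were nearest to 15 of the 38 genes. Of these regions, 5 were called in all 6 libraries, 4 in at least 2 senescent and 0 control libraries, 0 in at least 2 control and 0 senescent libraries, and 19 in a single library. Over all regions these calls made up 6.58%, 9.44%, 5.86% and 55.7%, in the same order. Parp2, which also responds to DNA breaks, had a region 102 bp upstream of its start site (chr14:50807288-50807989) with 1 E-box. It ranked 741, 936 and 433.5 in control and 970, 2024.5 and 1595.5 in senescent replicates 1, 2 and 3. Every control library ranked it higher, a pattern of 18.4% of regions called in all 6 libraries, but as a percentile of its list it stood at 26.5%, 27.9% and 4.09% in control and 23.0%, 20.6% and 31.6% in senescent libraries, and the groups overlapped. NAD kinase (Nadk), which makes NADP from NAD, had a region 65 bp upstream of one of its start sites (chr4:155582274-155582591) that was called in 0 control libraries and ranked 2168, 1170.5 and 1828.5 in senescent replicates 1, 2 and 3. That region held no E-box within 100 bp of its centre. Nadk also had a region 214 bp upstream of another start site (chr4:155563299-155563674), called in 2 control and 3 senescent libraries. This one ranked 2761 and 1191 in control replicates 1 and 3, and 4110, 1562 and 3481 in senescent replicates 1, 2 and 3. The other 4 regions called in all 6 libraries lay more than 1000 bp from a start site, 1 each at Sirt4 and Haao and 2 at Parp16, and were named after their values were seen. The Haao region, 15175 bp upstream, ranked between 1050.5 and 2823. Those at Parp16, 1208 and 6357 bp downstream, ranked between 76 and 470 and between 107 and 336. The region 5331 bp upstream of Sirt4, a mitochondrial sirtuin, ranked 135, 122 and 257.5 in control and 430, 410.5 and 423 in senescent libraries. Every control library ranked the Sirt4 and both Parp16 regions higher, the same pattern of 18.4%, whereas at Haao the groups overlapped. By percentile only the Parp16 region at 1208 bp did not overlap, as at 4.70% of such regions. It stood at 3.15%, 2.27% and 0.745% in control and 5.02%, 3.76% and 9.30% in senescent libraries.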

How the data were processed

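Read pairs were aligned to mm10 by the authors (Burrows-Wheeler Aligner), who kept pairs with a uniquely mapped end, took out duplicates (Picard) and ran MACS2 on each library separately within the HiChIP pipeline, with an FDR limit of 1%. The MACS2 version and the use of the input as its control are not given in the sources used here. The deposited peak scores were taken to be −log10 q-values, since the smallest of every list lay between 2.02 and 2.12. Such a score grows with depth and is not normalized between libraries, so peaks were ranked within their own list.

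The 6 input libraries were not analysed here. Start sites came from GENCODE M21 (basic set, protein-coding, GRCm38), and motifs were matched letter for letter on both strands. The exact permutation test of mean ranks (20 arrangements, n = 3 per group) was run on all 1106 regions called in all 6 libraries with Benjamini-Hochberg adjustment, after the code was tested on simulated data (Python 3.11.15, scipy 1.17.1, pysam 0.24.0). Members, gene lists and tests were chosen with earlier results of these data known. All 10 genes are named, regions called in at least 4 libraries, in 1 group only or within 1000 bp of a start site are described one by one, and other NAD genes are named where a region within 1000 bp of their start site was called in all 6 libraries or in 1 group only. Alternatives were a stricter score, equal list lengths, leaving out each library, an overlap of 50%, other assignments, scales and motif windows, and the replicate number as a block.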

Additional observations from a re-analysis of the deposited data

How the results depend on the processing

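No member region was called in at least 2 control and 0 senescent libraries under any of the 12 alternatives tried for it. With only peaks scoring above their list's median kept, the difference in member genes with a peak was 1.7 genes instead of 1. The share over all genes was not computed for this setting. Only 1 member region (the distal Nmnat2 region) was then called in all 6 libraries instead of 4, and ranks did not overlap at 1 region instead of 2. With percentiles the groups did not overlap at 1 region, Nmnat3, instead of Nmnat2 and Parp1. Leaving out each library in turn gave 0 to 1 regions called in senescent libraries only. The single one, at the Sirt1 start site, appeared without control replicate 3. The rank difference at Nampt, senescent minus control, was 139 and changed sign to -158 without control replicate 1, -339.5 without senescent replicate 1 and -3.30 percentile points on the percentile scale (range without 1 library, -339.5 to 536.5). The differences at Nmnat2, Nmnat3 and Parp1 kept their direction wherever they could be computed. Among those higher-scoring peaks only Nmnat2 could be, and at equal list lengths all but Nmnat3. The difference at Nmnat3 was -1786 and became -307 without control replicate 3 and -3074 without control replicate 1, where its ranks no longer overlapped and 3 regions did not overlap. The share of member regions with an E-box ranged from 20% to 50%, the highest with lists of equal length. For those lists no share over all regions was computed.

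Replicate numbers are shared between the groups. Deviations of same-numbered libraries from their group means correlated at 0.0755, -0.0507 and -0.0177 over the 1106 regions. Libraries of unlike number correlated between -0.0887 and 0.0893. The labels do not say whether same-numbered libraries shared an animal, a culture or a batch, and these correlations cannot decide it. With the replicate number as a block, all 3 pairs moved the same way at 2 regions, Nmnat2 and Parp1 (exact sign-flip permutation test, p = 0.25, the smallest with 3 pairs). Peak lists hold no depth, so a change in the amount of binding at a region called in both groups cannot be measured from them.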
